A study of Mus musculus with 12 samples.

Results

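The costimulatory genes followed here were 10 members of the TNF and TNF receptor families, in 5 receptor and ligand pairs, read in the cells of MC38 tumors: Tnfrsf9 (4-1BB) with Tnfsf9 (4-1BB ligand), Tnfrsf4 (OX40) with Tnfsf4 (OX40 ligand), Tnfrsf18 (GITR) with Tnfsf18 (GITR ligand), Cd27 with Cd70, and Cd40 with Cd40lg. The 10 genes, of 27457 listed, were chosen by the names of the family members, with earlier results of these data known, and Tnfrsf9 was set apart from the other 9 for its levels in macrophages and in T cells. Its differences between groups are therefore given as values with a standard error and no test.

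MC38 is a C57BL/6J colon carcinoma cell line. It was grown under the skin of female mice aged 8 to 12 weeks, either C57BL/6J (B6 below) or F1 offspring of C57BL/6J and 1 of 7 Collaborative Cross (CC) strains, inbred lines that each carry a fixed mosaic of founder genomes. Beside the C57BL/6J genome, responder hosts carried that of CC001/UncJ, CC002/UncJ or CC075/UncJ and non-responder hosts that of CC036/UncJ, CC079/TauUncJ or CC080/TauUncJ, a division that the study made from tumor growth under aPD1. B6 hosts and F1 hosts of CC007/UncJ belong to neither class and are given as values. Each mouse received 200 µg of isotype control antibody or of anti-PD-1 antibody (aPD1). Tumors were harvested after 48 h, stored frozen, sorted to consist mostly of CD45+ leukocytes, tagged with a hashing antibody and profiled by droplet single-cell RNA sequencing.

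The 48 tumors were loaded as 12 pools of 4, and the files held 93126 cells in 27 clusters made by the authors, with a median of 3333.5 UMIs (unique molecular identifiers, each standing for 1 captured RNA molecule) per cell. Responder strains gave 10 isotype tumors (15734 cells) and 10 aPD1 tumors (22598 cells). Non-responder strains gave 9 isotype tumors (19780 cells) and 9 aPD1 tumors (17756 cells), and B6 and CC007 hosts gave 5 and 5. A tumor held between 53 and 3082 cells. Of 87940 distinct cell barcodes, 4990 occurred in more than 1 pool. The hashtag antibody went with the treatment throughout, so that hashtag and treatment cannot be told apart, and hashtag and response class nearly coincided. The same animal identifier stood on 2 tumors (CC080 isotype in pool 3 and CC080 aPD1 in pool 4). Macrophage markers were carried by 10 clusters (68059 cells), and 9 clusters (12021 cells) carried T or NK cell markers, called T/NK cells here. One of these 9, cluster 12, also held macrophage markers at 45.6% of the level in macrophages.

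The receptors of this group sit on activated lymphocytes (4-1BB, OX40, GITR), on resting and activated lymphocytes (CD27) or on antigen-presenting cells (CD40), and bind ligands on the partner cell. Signals pass through TRAF adaptor proteins to NF-kappaB and favour survival, division and cytokine release. 4-1BB appears on CD8 T cells after antigen contact, OX40 and GITR are constitutively high on mouse regulatory T cells (Tregs), and CD40 on macrophages and dendritic cells (DCs) is engaged by CD40 ligand on activated CD4 T cells.

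In the mouse genome (GRCm38, gene coordinates of the GENCODE annotation), Tnfrsf9 (ENSMUSG00000028965) lies at chr4:150914562-150946102 on the plus strand. Tnfrsf4 (chr4:156013843-156016612) and Tnfrsf18 (chr4:156026164-156028895) are neighbours on the same chromosome with 9551 bases between them. Cd27 lies at chr6:125232622-125237010 on the minus strand and Cd40 at chr2:165055627-165072948. Among the ligands, Tnfsf9 (chr17:57105325-57107757) and Cd70 (chr17:57145997-57149777) are 38239 bases apart. Tnfsf4 (chr1:161395409-161418410) and Tnfsf18 (chr1:161494655-161505290) are 76244 bases apart, and Cd40lg lies at chrX:57212143-57224042. All 10 are protein-coding genes, and counts covered each gene as a whole, so exons, introns and isoforms were not separated.

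Start-site windows of 300 bases (250 before and 50 after a RefSeq transcript start, GRCm38.p6) were given for 5 of the 10 genes, 6 windows in all. The 2 windows of Tnfrsf9 are shown because this gene was read both in lymphocytes and in macrophages. Neither covers the first base of the gene in the GENCODE annotation, which lies upstream of both and was not searched. In capitals are matches to the NF-kappaB motif and to the AP-1 motif TGANTCA, both searched on both strands and both chosen after the windows had been read.
Tnfrsf9, chr4:150919905-150920204, plus strand: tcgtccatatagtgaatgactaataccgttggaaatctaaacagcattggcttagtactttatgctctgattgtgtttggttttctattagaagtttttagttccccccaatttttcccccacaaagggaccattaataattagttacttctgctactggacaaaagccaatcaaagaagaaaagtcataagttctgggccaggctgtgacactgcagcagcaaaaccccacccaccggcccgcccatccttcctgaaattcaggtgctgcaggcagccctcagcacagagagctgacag
Tnfrsf9, chr4:150927749-150928048, plus strand: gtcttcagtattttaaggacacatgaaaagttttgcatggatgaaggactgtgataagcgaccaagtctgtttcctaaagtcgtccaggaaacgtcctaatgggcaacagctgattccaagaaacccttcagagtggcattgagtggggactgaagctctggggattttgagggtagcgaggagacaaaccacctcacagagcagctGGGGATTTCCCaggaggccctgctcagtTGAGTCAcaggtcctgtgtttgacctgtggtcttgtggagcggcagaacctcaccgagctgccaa
The first window held neither motif. The second held 2 overlapping NF-kappaB matches, starting at bases 208 and 209, and an AP-1 match starting at base 236. It was the only one of the 6 windows with either motif. Of 32851 such windows across the genome, 8.46% held the NF-kappaB motif and 7.81% the AP-1 motif, and a match describes letters only. The reads did not show which start was in use.

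Receptors and ligands of the family were spread unevenly over the cell types. Levels below are counts per 1000000 UMIs of a cluster (CPM), summed over its cells. The chemistry counts 1 end of each RNA, so no scaling by length applies, and levels are compared between clusters for the same gene rather than between genes. The clusters were drawn from these same counts, and no cluster was tested against another.

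Tnfrsf9 was the most counted of the 10 genes, with 27970 UMIs, of which T/NK cells held 77.5%, macrophages 12.7% and migratory DCs 5.35%. Its highest levels were in cluster 8, which carried the Treg markers Foxp3 (247 CPM), Il2ra, Ctla4 and Ikzf2, at 1144.9 CPM, and in cluster 13, which carried Cd8a (483 CPM) and Il2ra (507 CPM), at 1136.9 CPM. Next came cluster 3, the largest with Cd8a (731 CPM), at 711 CPM, cluster 1 (Cd8a 453 CPM) at 668 CPM and cluster 10, high in Cd4 (482 CPM), at 509 CPM. Cluster 24, with the NK markers Ncr1 (452 CPM) and Klrb1c (304 CPM), stood at 399 CPM, and migratory DCs (cluster 11) at 225 CPM. Over tumors the medians kept clusters 8 (1134.7 CPM, 34 tumors) and 13 (1045.6 CPM, 9 tumors) on top. Tumors ranged from 473 to 1882.1 CPM in cluster 8, from 508 to 1604.3 CPM in cluster 13, from 434 to 1118.4 CPM in cluster 3, from 265 to 651 CPM in cluster 10 and from 103 to 600 CPM in cluster 24, so that each neighbour in this order overlapped the next. Foxp3, Il2ra, Ctla4 and Ikzf2 were highest in cluster 8, called Treg-marked below. It was not a pure Cd4 population, with Cd8a at 121 CPM and Cd8b1 at 120 CPM beside Cd4 at 119 CPM. Ikzf2 also stood at 689 CPM in cluster 1.

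Tnfrsf4 and Tnfrsf18, both Treg-rich receptors, were led by cluster 8 as well, with 782 and 643 CPM. Cluster 10 followed for both, with 481 CPM of Tnfrsf4 and 493 CPM of Tnfrsf18, and cluster 13 came next with 432 and 301 CPM. NK-marked cluster 24 separated the receptors: it held Tnfrsf18 at 128 CPM and Tnfrsf4 at 1.47 CPM, from 6 UMIs in 1614 cells. T/NK cells held 91.9% of all Tnfrsf4 UMIs and 82.7% of all Tnfrsf18 UMIs. Outside lymphocytes, migratory DCs carried Tnfrsf18 at 76.6 CPM and Tnfrsf4 at 64.5 CPM, and cDC1 (cluster 6, conventional DCs that cross-present antigen) carried Tnfrsf18 at 22.6 CPM and Tnfrsf4 at 1.94 CPM.

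Cd27, which supports memory T cell formation, was a lymphocyte gene, with 97.0% of its 3290 UMIs in T/NK cells. Clusters 13 (155 CPM), 3 (124 CPM) and 8 (115 CPM) led, and Cd4-high cluster 10 stood at 20.5 CPM. Cd40lg showed a different order: cluster 23 (251 CPM, 212 cells, a single tumor with 20 cells of it), cluster 10 (239 CPM), cluster 13 (139 CPM) and cluster 7 (85.4 CPM) led, and CD8-marked cluster 3 stood at 6.73 CPM and NK-marked cluster 24 at 0.49 CPM. Cd27 and Cd40lg thus ran in opposite order in clusters 3 and 10.

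Cd40 was the myeloid receptor of the set, with 75.7% of its 24022 UMIs in macrophages and 11.6% in migratory DCs. Migratory DCs had the highest level, 419 CPM. Macrophage clusters ranged from 11.3 CPM (cluster 15) to 172 CPM (cluster 21). cDC1 stood at 57.8 CPM, pDCs (cluster 18, plasmacytoid DCs) at 13.8 CPM and T/NK cells together at 3.45 CPM.

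Among the ligands, Tnfsf9 was mostly a myeloid transcript, with 70.1% of 11991 UMIs in macrophages, and again migratory DCs were highest at 150 CPM. Cd4-high cluster 10 came next at 85.3 CPM, followed by macrophage cluster 27 at 51.9 CPM and cluster 14 at 51.7 CPM. Cluster 14 is left unnamed by the marker rule used here, with Cd209a, Ccl17 and Mgl2 among its leading genes, and is a Cd209a+ DC population in the naming of the study. Cd70 had only 671 UMIs, split between T/NK cells (53.7%) and migratory DCs (43.1%), with cluster 10 at 95.8 CPM and migratory DCs at 43.6 CPM. Tnfsf4 had 723 UMIs, 49.4% in T/NK cells and 37.3% in migratory DCs, where it was highest at 40.7 CPM. Tnfsf18 was close to absent, with 82 UMIs in all cells, 52 of them in macrophages and 14 in fibroblasts (cluster 22, 4.48 CPM). Migratory DCs, which carry antigen to lymph nodes, were the highest or second highest cluster for Cd40, Tnfsf9, Tnfsf4 and Cd70. Among clusters with 20 cells or more in at least 3 tumors, the top cluster by the sum over cells was also the top by the median over tumors for 9 of the 10 genes, Tnfsf18 being the exception. This limit leaves out cluster 23, with 1 such tumor, so that cluster 10 is then the top for Cd40lg.

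**Figure D1:**
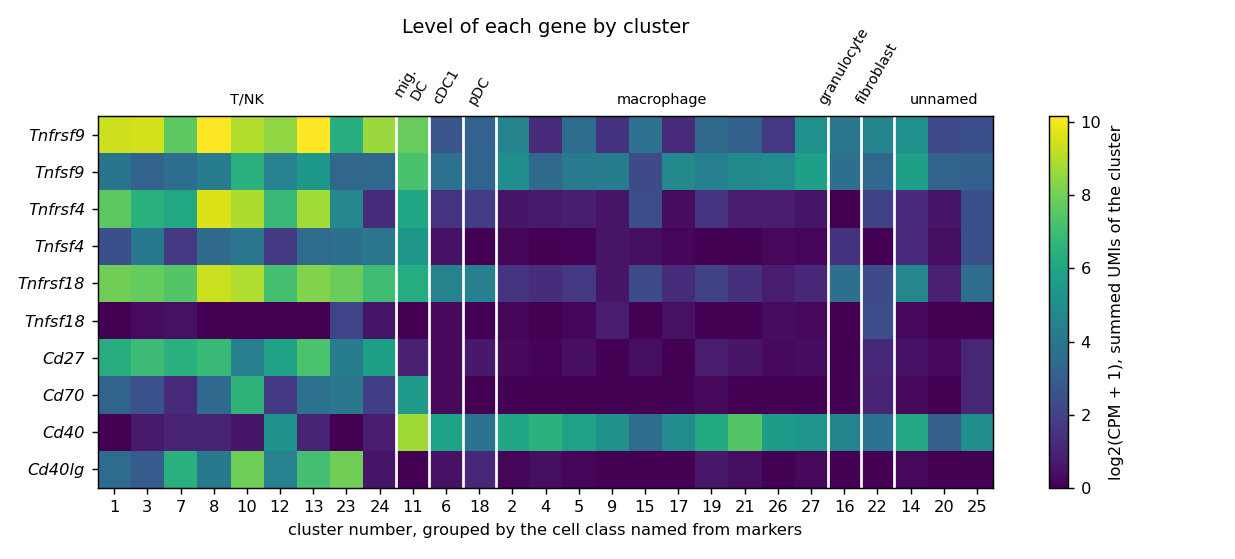
Level of each of the 10 genes (rows) in each of the 27 clusters (columns, grouped by the cell class named from markers) as log2(CPM + 1) of the UMIs summed over the cells of a cluster, shown by colour. Tnfrsf9, Tnfrsf4 and Tnfrsf18 are highest in T/NK cluster 8, and Cd40, Tnfsf9 and Tnfsf4 in migratory DC cluster 11.

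Tnfrsf9 was also counted in macrophages, and unevenly among them. Of 68059 macrophages, 1507 (2.21%) held at least 1 Tnfrsf9 UMI, against 6160 of 12021 T/NK cells (51.2%). The share was 5.95% in cluster 27 and 3.87% in cluster 2, 1.89% in cluster 5, 0.864% in cluster 26 and 0.348% in cluster 4, with median depths of 3763, 3881, 2599.5, 4383 and 2483.5 UMIs per cell. Granulocytes (cluster 16), read for comparison and not known here to lack the transcript, gave 0.567% at a median of 815 UMIs, and cDC1 0.915% at 6575.5 UMIs. Fibroblasts, which were few (582 cells), gave 4.47%, at 22.7 CPM. Cluster 26 was thus below the share of cDC1 and cluster 4 below that of granulocytes, and clusters 2, 5 and 27 were above both but, for clusters 2 and 5, not above that of fibroblasts. Of the other 5 macrophage clusters, cluster 15 gave 4.1% of 293 cells, cluster 21 gave 1.7% of 4300 cells, and clusters 9, 17 and 19 gave 0.489%, 0.898% and 0.848%. Cluster 14, with 6.61% of its 4981 cells and 33.3 CPM, had a higher share than any macrophage cluster and a level close to that of cluster 27. How much of each share was free RNA was not tested. By summed level, cluster 27 (33.5 CPM) and cluster 2 (22.5 CPM) led, followed by clusters 15 (13.1 CPM), 5 (11 CPM), 19 (10.3 CPM) and 21 (7.72 CPM), and clusters 26, 9, 4 and 17 lay between 1.29 and 2.35 CPM. On this scale granulocytes stood at 16 CPM, from 9 UMIs in 529 cells, and cDC1 at 5.32 CPM. By level, unlike by share, cluster 5 was thus below granulocytes, and only clusters 27 and 2 were above them. Of the 9 granulocyte UMIs, 7 lay in 1 cell that held a UMI of Cd3e, Cd3d, Cd3g or Trac. With such cells left out, granulocytes stood at 3.82 CPM and cDC1 at 1.77 CPM. Clusters 27, 2, 5, 21 and 19 then stood above both, at 33.4, 22.3, 10.9, 7.48 and 5.39 CPM. Clusters 26, 15, 9, 4 and 17 lay between 1.03 and 2.14 CPM.

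Genes of the set with most or nearly 50% of their UMIs in T/NK cells were compared with Tnfrsf9 by their level in macrophages relative to T/NK cells. The level in all macrophages was 0.279% of that in T/NK cells for Tnfrsf4, 0.238% for Cd27, 0.26% for Cd40lg, 0.279% for Cd70, 0.531% for Tnfrsf18 and 1.13% for Tnfsf4, while for Tnfrsf9 it was 1.83%, and 5.19% in cluster 27 and 3.49% in cluster 2. In cluster 26 it was 0.364% and in cluster 4 0.203%, the first within the range of those genes and the second below it. Of the macrophages with a Tnfrsf9 UMI, 3.92% held a UMI of Cd3e, Cd3d, Cd3g or Trac, against 1.19% of those without, and 95% held a macrophage marker, against 92.2%. Cells with a Tnfrsf9 UMI were deeper, with a median of 5329 UMIs against 3450. Cells without a T cell marker held 3397 of the 3560 Tnfrsf9 UMIs of macrophages. The share differed between clusters: cells without a T cell marker held 6 of 44 UMIs in cluster 15, 28 of 55 in cluster 19 and 131 of 137 in cluster 21.

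The first question of the design is whether responder and non-responder hosts differ. In macrophages of responder strains under aPD1, Tnfrsf9 was about 3 times as high as in the other 3 groups. Cd40 was called higher in responder than in non-responder strains under aPD1, in a contrast added after the data had been seen. That call counts tumors of the same strain as separate replicates of a class. With counts summed per strain, over both treatments, Cd40 was not called, and of all genes only 3 were. Tnfsf9 and Tnfrsf18, the other 2 genes with enough counts for the fit, showed no called difference, and the remaining 6 genes were too low to be tested in macrophages. Counts were summed per tumor and fitted with edgeR's quasi-likelihood test over all 4 groups at once, with Benjamini-Hochberg adjustment over all genes tested, and a difference was called at an adjusted p under 0.05. Log2 differences are responder minus non-responder or aPD1 minus isotype, with standard errors. In bulk sums of this kind, fewer positive cells and less RNA per cell cannot be told apart.

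By tumor, macrophage Tnfrsf9 in the 10 responder aPD1 tumors ran from 5.86 CPM over a median of 16.4 CPM to 91.3 CPM. The 10 responder isotype tumors ran from 1.52 CPM over 5.38 CPM to 12.6 CPM. Of the 10 aPD1 tumors, 7 lay above every isotype tumor of the class, and all 10 above the isotype median. In non-responder strains the 9 isotype tumors ran from 2.36 CPM over 5.57 CPM to 27 CPM and the 9 aPD1 tumors from 2.09 CPM over 5.27 CPM to 18.5 CPM. These groups overlapped almost fully, and 3 of the 10 responder aPD1 tumors lay above every non-responder aPD1 tumor.

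The values by strain show how far this held within each host. In CC001 the 4 aPD1 tumors stood at 9.17, 20.5, 16.2 and 5.86 CPM and the 4 isotype tumors of the same pools at 1.7, 3, 4.03 and 1.52 CPM. In CC002 the aPD1 tumors stood at 16.2, 10.2 and 26.5 CPM against 7.69, 11.2 and 2.42 CPM. The isotype tumor at 2.42 CPM, of pool 12, held only 125 macrophages, 0.8% of them with a Tnfrsf9 UMI. In CC075 the aPD1 tumors stood at 91.3, 17 and 16.5 CPM against 6.99, 12.6 and 6.73 CPM. The aPD1 tumor was thus the higher of 9 of 10 responder pairs, with a median difference of 9.18 CPM, the exception being CC002 in pool 5. Among the 3 non-responder strains, CC036 stood at 9.25, 7.93 and 18.5 CPM under aPD1 against 27, 6.89 and 5.65 CPM. CC079 stood at 4.68, 2.09 and 6.86 CPM against 4.4, 4.91 and 3.17 CPM. CC080 stood at 5.27, 3.89 and 4.15 CPM against 2.36, 16.1 and 5.57 CPM. There the aPD1 tumor was higher in 5 of 9 pairs, with a median difference of 0.277 CPM.

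In the fit, Tnfrsf9 in macrophages differed by 0.81 ± 0.33 on the log2 scale between the classes over both treatments, by 1.79 ± 0.44 within aPD1 tumors and by -0.17 ± 0.49 within isotype tumors. The difference of aPD1 from isotype was 1.96 ± 0.45 in responder strains and -0.00 ± 0.48 in non-responder strains, and the difference of these 2 was 1.96 ± 0.66. The splits of the class difference by treatment were added after the data had been seen. Without the CC075 aPD1 tumor of pool 9, the highest of all, the class difference within aPD1 tumors was 1.24 and the aPD1 difference in responders 1.41. Without strain CC075 the class difference over both treatments was 0.33, and without strain CC001 it was 1.27.

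T cell transcripts in macrophages moved in part with these groups. The summed level of 8 T/NK markers, none of which was at 0 over all tumors together, had medians of 10.2 CPM (5.57 to 60.6) in responder aPD1, 6.71 CPM (3.88 to 18.5) in responder isotype, 7.66 CPM (4.81 to 35) in non-responder isotype and 8.29 CPM (3.09 to 9.84) in non-responder aPD1 tumors. With all cells that held a Cd3e, Cd3d, Cd3g or Trac UMI left out, a choice made after the data had been seen, the Tnfrsf9 medians were 16.2, 4.92, 5.64 and 5.13 CPM in the same order, close to the values of all macrophages. The share of macrophages with a Tnfrsf9 UMI had medians of 2.79%, 1.4%, 1.25% and 1.43%, and median depth per macrophage was 3229, 3525.5, 3274.5 and 3777.5 UMIs. The part of depth in these shares was not tested. The makeup of macrophages moved as well: cluster 2, the largest macrophage cluster, made up a median of 33% of macrophages in responder aPD1 tumors against 20.7%, 22% and 28.1% in the others. Cluster 27, the macrophage cluster with the highest Tnfrsf9 level, went the other way, with 3.99% against 6.5%, 7.18% and 5.6%. Cluster 5 stood at 17.1% against 18.3%, 19% and 19%.

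Single macrophage clusters were fitted after the data had been seen. In cluster 2 the median was 29.6 CPM in responder aPD1 tumors against 10.8 CPM in responder isotype, 8.46 CPM in non-responder isotype and 9.33 CPM in non-responder aPD1 tumors. The aPD1 tumor was higher in 10 of 10 responder pairs, and 9 of the 10 lay above every isotype tumor of the class. Among non-responder pairs, 4 of 9 had the higher value under aPD1. Cluster 5 had medians of 14.6, 3.39, 5.57 and 6.62 CPM in the same order of groups, with 7 of 10 responder aPD1 tumors above every responder isotype tumor. Cluster 27 had 68.5, 9.52, 16.2 and 31.4 CPM, with wide overlap: 2 of 10 responder aPD1 tumors lay above every responder isotype tumor, and of the same 10, 5 lay above and 1 below all non-responder aPD1 tumors. In cluster 26 Tnfrsf9 was too low for the fit, with medians of 3.78, 0.872, 1.63 and 0.803 CPM. Cluster 14, outside the macrophages and not fitted, had medians of 63 CPM (5.14 to 212) in responder aPD1, 15.1 CPM (0 to 108) in responder isotype, 26.6 CPM (11 to 86.7) in non-responder isotype and 11.7 CPM (0 to 63.3) in non-responder aPD1 tumors. The aPD1 difference in responders was 1.77 ± 0.44 in cluster 2, 1.84 ± 0.51 in cluster 5 and 1.87 ± 0.57 in cluster 27, and in non-responders 0.08 ± 0.48, 0.15 ± 0.50 and 0.41 ± 0.61. The part of the makeup in the difference over all macrophages was not tested.

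B6 and CC007 hosts, which belong to neither class, were compared by their values alone. For macrophage Tnfrsf9, B6 stood at 10.4, 14.5 and 39.4 CPM with isotype and at 21.5, 21.8 and 16.1 CPM with aPD1. CC007 stood at 8.68 and 28 CPM with isotype and at 21.5 CPM (1 UMI in 30 cells) and 31 CPM with aPD1. Of their 5 isotype tumors, 2 lay within the range of the responder isotype tumors and 3 above it.

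**Figure D2:**
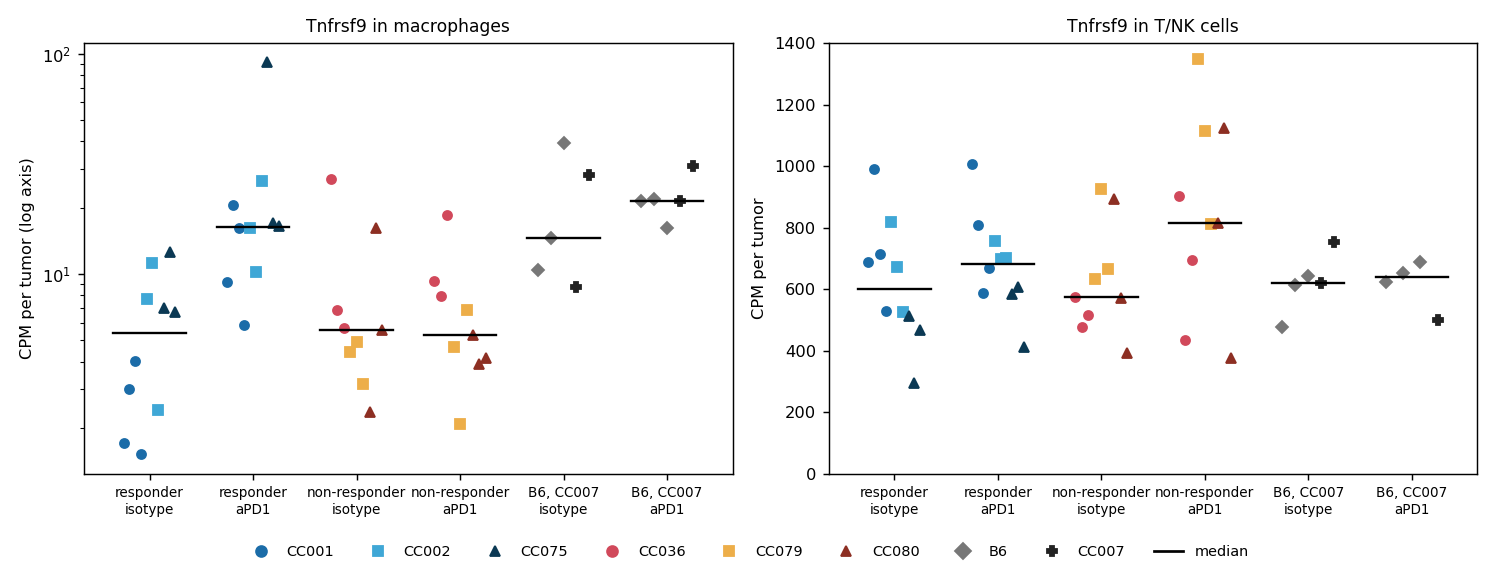
Tnfrsf9 in macrophages (log axis) and in T/NK cells (linear axis from 0) in CPM, by response class and antibody; each point is a tumor, its colour and shape the strain, and bars are medians. In macrophages the 10 responder aPD1 tumors run from 5.86 to 91.3 CPM and the 10 responder isotype tumors from 1.52 to 12.6 CPM, while in T/NK cells all groups overlap.

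Among T/NK cells, where Tnfrsf9 is far higher, the groups overlapped. The responder isotype tumors ran from 294 CPM over 600 CPM to 991 CPM and the responder aPD1 tumors from 411 CPM over 684 CPM to 1008 CPM. The non-responder isotype tumors ran from 391 CPM over 575 CPM to 925 CPM and the non-responder aPD1 tumors from 375 CPM over 814 CPM to 1349.3 CPM. The class difference was -0.10 ± 0.14, and the aPD1 difference 0.13 ± 0.20 in responders and 0.37 ± 0.21 in non-responders. The sign of the class difference was not stable: without strain CC079 it was 0.07 and without CC075 0.08. Within Treg-marked cluster 8 the class difference was -0.11 ± 0.17 and within migratory DCs -0.09 ± 0.23, both within the standard error. CD8-marked cluster 3 held enough tumors only at a minimum of 10 cells, a limit set after the data had been seen, and gave -0.11 ± 0.12. There the aPD1 difference in responders was 0.28 ± 0.15, and in tumors of at least 20 cells the aPD1 tumor was higher in 9 of 9 responder pairs, with medians of 723 CPM against 571 CPM. With isotype, 7 of the 9 responder tumors of at least 20 cells lay below all 4 such non-responder tumors, with means of 583 ± 90.1 CPM against 780 ± 90.6 CPM (SD). At the minimum of 10 cells, with 7 non-responder isotype tumors, the class difference within isotype tumors was -0.14 ± 0.17, within its standard error.

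Among the 9 genes outside Tnfrsf9, Cd40 in macrophages was the only one called with the filter, samples and terms of the design, and this in a contrast added after the data had been seen. Its 10 responder aPD1 tumors ran from 45.8 CPM over 73.1 CPM to 126 CPM and its 9 non-responder aPD1 tumors from 16.4 CPM over 45.6 CPM to 60.6 CPM. Of the responder values, 8 of 10 exceeded the highest non-responder value. The isotype tumors ran from 28.7 CPM over 55 CPM to 114 CPM in responders and from 28.2 CPM over 54 CPM to 97.3 CPM in non-responders, and overlapped. Within aPD1 tumors the class difference was 0.87 ± 0.25 (edgeR, adjusted p = 0.0295), a comparison added after the data had been seen, in which 6.44% of all genes tested were called. Within isotype tumors it was 0.15 ± 0.25 (edgeR, adjusted p = 1), with 0.278% of all genes called. Over both treatments, the comparison fixed by the design, it was 0.51 ± 0.18 and not called (edgeR, adjusted p = 0.0816), with 6.56% of all genes called. With the pools as a block it was 0.54 and called (edgeR, adjusted p = 0.0436), and without strain CC079 it was 0.25, the lowest of 17 alternatives.

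The Cd40 call within aPD1 tumors did not hold in every subset. It was lost within pools 1 to 5 (0.92, adjusted p = 0.229 by edgeR), within pools 8 to 12 (0.77, adjusted p = 0.148 by edgeR), without strain CC075 (0.76, 0.11), CC079 (0.67, 0.115) or CC080 (0.88, 0.0749) and without the 2 tumors of the shared animal identifier (0.86, 0.0527), and held in 10 of 16 alternatives. Leaving out 1 tumor at a time gave 0.76 to 0.94, past the threshold in 32 of 38 cases. In the single clusters fitted after the data had been seen, the class difference of Cd40 within aPD1 tumors was 0.87 ± 0.25 in cluster 2 (adjusted p = 0.0244, 7.7% of genes called), 0.98 ± 0.26 in cluster 5 (adjusted p = 0.0205, 4.7% of genes called), 1.27 ± 0.28 in cluster 26 (adjusted p = 0.00301, 7.33% of genes called) and 0.99 ± 0.31 in cluster 27 (adjusted p = 0.249, 0.317% of genes called), all by edgeR. It was positive in all 4 and called in 3. In cluster 26 the class difference over both treatments was called as well (0.77, adjusted p = 0.0126 by edgeR, with 750 of 9882 genes called).

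Strain by strain, mean macrophage Cd40 under aPD1 was 75.4 CPM in CC001 (45.8 to 117, 4 tumors), 69.8 CPM in CC002 (63.1 to 80.2) and 93 CPM in CC075 (62.5 to 126), and 58.6 CPM in CC036 (56.4 to 60.6), 32.3 CPM in CC079 (16.4 to 45.6) and 46.9 CPM in CC080 (44.5 to 51.3), with 3 tumors in each strain but CC001. The 3 responder strains were the highest 3 of these 6, and CC079 the lowest. With isotype, CC001 stood at 43.1 CPM, CC002 at 56.5 CPM, CC075 at 83.6 CPM, CC036 at 58.6 CPM, CC079 at 28.8 CPM and CC080 at 71.6 CPM, with the classes mixed. With counts summed per strain, 3 strains against 3, the class difference over both treatments was 0.55 (edgeR, adjusted p = 0.976), with 3 of all genes called. B6 stood at 69.1 CPM with isotype and 85.5 CPM with aPD1, and CC007 at 81.6 CPM with isotype and 67.5 CPM with aPD1.

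The effect of aPD1 on Cd40 itself was not called. In responder strains it was 0.51 ± 0.24 (edgeR, adjusted p = 0.713), with the aPD1 tumor higher in 8 of 10 pairs. For non-responders it was -0.22 ± 0.26 (edgeR, adjusted p = 1), and 4 of 9 pairs had more Cd40 under aPD1. The difference of the 2 effects was 0.72 ± 0.35 (edgeR, adjusted p = 0.868). In macrophages edgeR called 0% of genes for aPD1 in responders, 0% in non-responders and 0% for the difference between them. The unadjusted p was under 0.05 for 821, 91 and 680 genes, and DESeq2 called 2, 0 and 1. Of the 3 tested genes outside Tnfrsf9 only Cd40 passed an unadjusted p under 0.05, in the first and last of these.

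Tnfsf9, the ligand of 4-1BB, did not separate the groups in macrophages. Its tumors ran from 19 CPM over 28 CPM to 48.3 CPM in responder isotype, from 19.2 CPM over 25.7 CPM to 36.8 CPM in responder aPD1, from 19.4 CPM over 26 CPM to 32.8 CPM in non-responder isotype and from 15.8 CPM over 23.4 CPM to 70.8 CPM in non-responder aPD1 tumors. All 4 groups overlapped. The class difference was 0.01 ± 0.14 (edgeR, adjusted p = 0.987). Tnfrsf18, at a median of 0.741 to 1.57 CPM, differed by 0.00 ± 0.27 (edgeR, adjusted p = 0.998). The 6 genes not tested in macrophages had medians of 0.704 CPM or less in every group.

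**Figure D3:**
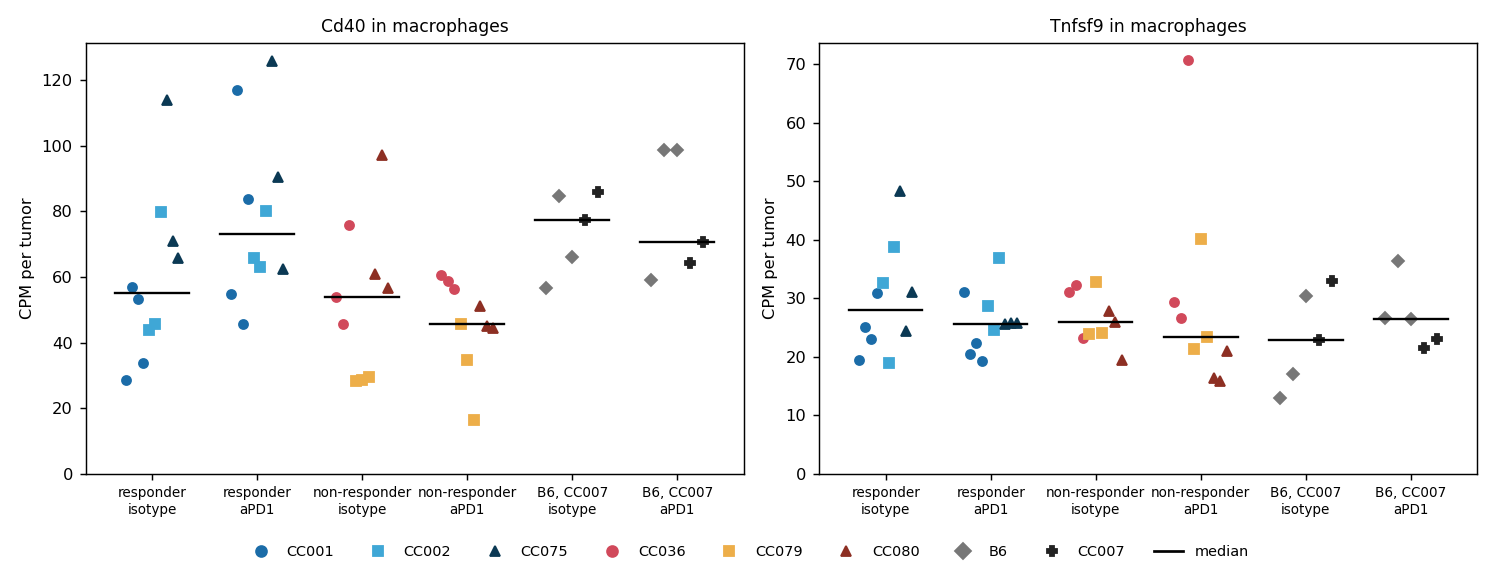
Cd40 and Tnfsf9 in macrophages in CPM (linear axes from 0), by response class and antibody; each point is a tumor, its colour and shape the strain, and bars are medians. For Cd40, 8 of the 10 responder aPD1 tumors lie above all 9 non-responder aPD1 tumors, and for Tnfsf9 all groups overlap.

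In T/NK cells 5 of the 9 genes outside Tnfrsf9 had enough counts for a test (Tnfsf9, Tnfrsf4, Tnfrsf18, Cd27 and Cd40lg), and none was called between the classes, where 2.23% of all genes were called. By DESeq2 none was called either, and Tnfrsf4 and Cd27 passed an unadjusted p under 0.05 in edgeR, as did 1048 of all 7219 genes tested. Cd27 ran from 56.8 CPM over 116 CPM to 201 CPM in responder isotype and from 45.7 CPM over 82.2 CPM to 133 CPM in non-responder isotype tumors. Under aPD1 it ran from 65.8 CPM over 107 CPM to 126 CPM in responders and from 52.7 CPM over 97.6 CPM to 198 CPM in non-responders. The groups overlapped, with 3 of 10 responder isotype tumors above every non-responder isotype tumor. Its class difference was 0.40 ± 0.14 (edgeR, adjusted p = 0.118). It was called with a term for pools 1 to 6 against 7 to 12 (0.42, adjusted p = 0.0475) and without strain CC079 (0.58, adjusted p = 0.0249), both by edgeR, and the difference ranged from 0.21 in pools 1 to 5 to 0.69 in pools 8 to 12, called in neither.

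Tnfrsf4 leaned the other way, with medians of 192 CPM (44.4 to 551) in responder isotype, 230 CPM (109 to 546) in responder aPD1, 297 CPM (104 to 759) in non-responder isotype and 433 CPM (86.1 to 1671.1) in non-responder aPD1 tumors. Its class difference was -0.65 ± 0.31 (edgeR, adjusted p = 0.321), and it was -0.01 without strain CC079. Tnfrsf18 had medians of 251, 301, 344 and 461 CPM in the same order and differed by -0.26 ± 0.19 (edgeR, adjusted p = 0.578), with the sign turned in pools 8 to 12 (0.09) and without CC079 (0.08). Cd40lg had medians of 27.5, 41.5, 50 and 32.9 CPM and differed by -0.53 ± 0.28 (edgeR, adjusted p = 0.381), with the sign turned without CC036 (0.08). Tnfsf9 differed by 0.09 ± 0.23 (edgeR, adjusted p = 0.929). All 4 overlapped widely between the classes.

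The 7 macrophage markers, none at 0 over all tumors together, had summed medians in T/NK cells of 472 CPM (98.9 to 1049.8), 535 CPM (176 to 1443.2), 465 CPM (156 to 1674) and 1099.9 CPM (337 to 3775.5) in the same order of groups, highest where the medians of Tnfrsf4 and Tnfrsf18 were highest, and their part in these values was not tested beyond leaving out cluster 12. Without that cluster the class difference was -0.71 for Tnfrsf4, -0.31 for Tnfrsf18, 0.36 for Cd27, -0.52 for Cd40lg and -0.13 for Tnfrsf9, and edgeR called none of the 5 genes tested outside Tnfrsf9 (lowest adjusted p = 0.218 among the 4 named). The makeup of the T/NK cells moved beside these values as well. CD8-marked cluster 3 made up a median of 35.2% of T/NK cells in responder isotype and 29.1% in responder aPD1 tumors, against 10.6% and 8.96% in non-responder isotype and aPD1 tumors. Treg-marked cluster 8, where Tnfrsf4 and Tnfrsf18 were highest, made up 14.6%, 17.7%, 15.2% and 33.6% in the same order. Within cluster 8, Tnfrsf4 differed by -0.03 ± 0.28 between the classes (edgeR, adjusted p = 0.995), Tnfrsf18 by -0.12 ± 0.22 (edgeR, adjusted p = 0.951) and Cd27 by -0.08 ± 0.19 (edgeR, adjusted p = 0.96). None of the 3 was called, with 0.124% of all genes called there, and none passed an unadjusted p under 0.05. In cluster 3 of at least 10 cells, where 0.769% of all genes were called, Tnfrsf4 differed by -0.66 ± 0.31 (edgeR, adjusted p = 0.449), Tnfrsf18 by 0.06 ± 0.17 (edgeR, adjusted p = 0.979) and Cd27 by 0.27 ± 0.19 (edgeR, adjusted p = 0.666).

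**Figure D4:**
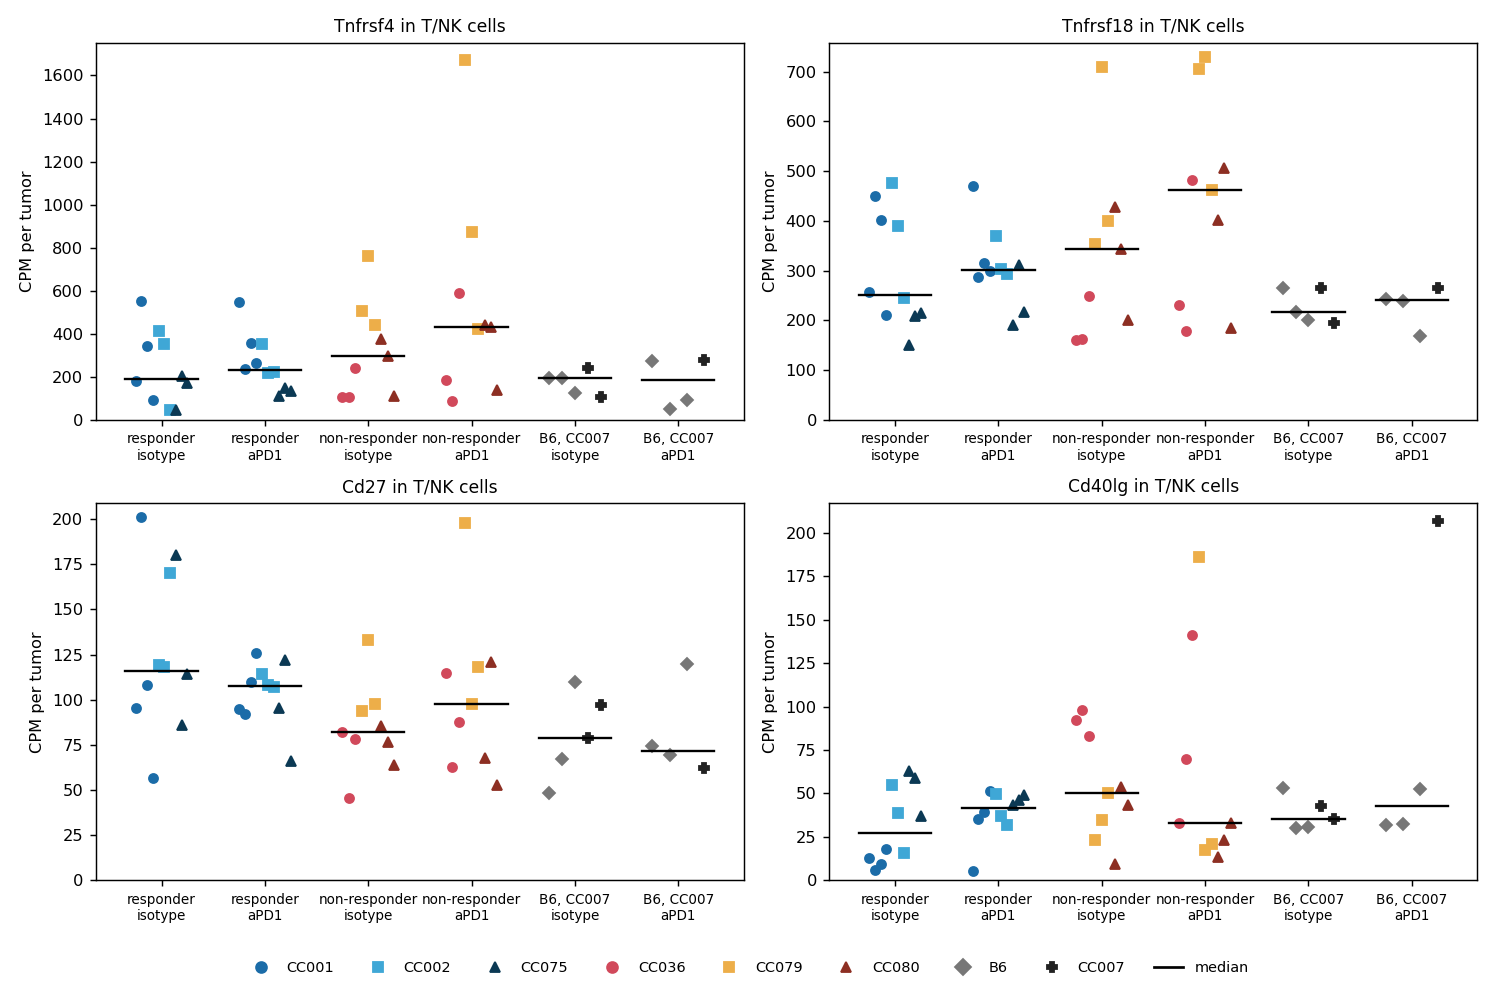
Tnfrsf4, Tnfrsf18, Cd27 and Cd40lg in T/NK cells in CPM (linear axes from 0), by response class and antibody; each point is a tumor, its colour and shape the strain, and bars are medians. The groups overlap in every panel, and the highest Tnfrsf4 value, 1671.1 CPM, is a non-responder aPD1 tumor with 29 T/NK cells.

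No effect of aPD1 was called for these genes in T/NK cells. Of all genes there, edgeR called 0% in responder strains, 0.0139% in non-responder strains and 0% for the difference of the 2, with an unadjusted p under 0.05 for 215, 265 and 246 genes and 0, 1 and 0 called by DESeq2. Between the classes it called 0.429% of genes within isotype and 0.346% within aPD1 tumors, and none of the 5 tested genes. Unadjusted p values under 0.05 were found for Cd27 within isotype tumors (0.60 ± 0.19) and for Tnfrsf4 within aPD1 tumors (-0.89 ± 0.44). Of all 7219 genes tested, 608 had such a value within isotype tumors and 724 within aPD1 tumors. DESeq2 called none of the 5 in any of these comparisons.

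No difference was called in the DC clusters that were fitted, migratory DCs and cDC1. The pDCs and cluster 14 were not fitted. In migratory DCs 6 genes outside Tnfrsf9 were tested between the classes, with 0.522% of all genes called. Cd40 ran from 273 CPM over 331 CPM to 409 CPM in the 5 responder isotype tumors, from 304 CPM over 448 CPM to 603 CPM in responder aPD1, from 225 CPM over 363 CPM to 501 CPM in non-responder isotype and from 238 CPM over 473 CPM to 640 CPM in non-responder aPD1 tumors. Its class difference was -0.07 ± 0.13 (edgeR, adjusted p = 0.932), and whether this differs from macrophages was not tested. The aPD1 difference was 0.41 ± 0.20 in responders and 0.37 ± 0.18 in non-responders (edgeR, adjusted p = 0.999 for both). Tnfsf4, the OX40 ligand, had medians of 18.2 CPM in responder isotype and 66.5 CPM in responder aPD1, and of 21.3 CPM and 42.3 CPM in non-responder isotype and aPD1 tumors. Its aPD1 difference was 1.49 ± 0.58 in responders and 0.98 ± 0.51 in non-responders (edgeR, adjusted p = 0.999 for both), and 19 UMIs stood behind the responder isotype group. Paired within pool and strain, Tnfsf4 was higher with aPD1 in 3 of 5 responder pairs (median difference 11.1 CPM) and 5 of 8 non-responder pairs (24.3 CPM). An unadjusted p under 0.05 was found in migratory DCs for Tnfsf4 with aPD1 in responders, Cd40 with aPD1 in non-responders, and Tnfrsf4 between the classes over both treatments and within aPD1 tumors. Between the classes, 257 of all 3065 genes tested had such a value over both treatments and 248 within aPD1 tumors. Tnfsf9 differed by -0.46 ± 0.30 between the classes (edgeR, adjusted p = 0.7), Tnfrsf4 by -0.71 ± 0.35 (adjusted p = 0.558) and Cd70 by -0.31 ± 0.38 (adjusted p = 0.876). Under aPD1 the Tnfrsf4 medians were close, 52.1 CPM in responder and 50.7 CPM in non-responder tumors. Its mean under aPD1 was 169 CPM in CC080 and between 34.5 and 52.4 CPM in the other strains of the classes. In cDC1 only Cd40 could be tested, at 0.11 ± 0.24 between the classes (edgeR, adjusted p = 0.96), with 0.452% of all genes called. For aPD1 in responders, for aPD1 in non-responders and for the difference of the 2, edgeR called 0% of genes in cDC1, in migratory DCs and in cluster 8, and the unadjusted p was under 0.05 for 176, 129 and 155 genes in cDC1, 105, 102 and 127 in migratory DCs and 209, 120 and 271 in cluster 8.

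**Figure D5:**
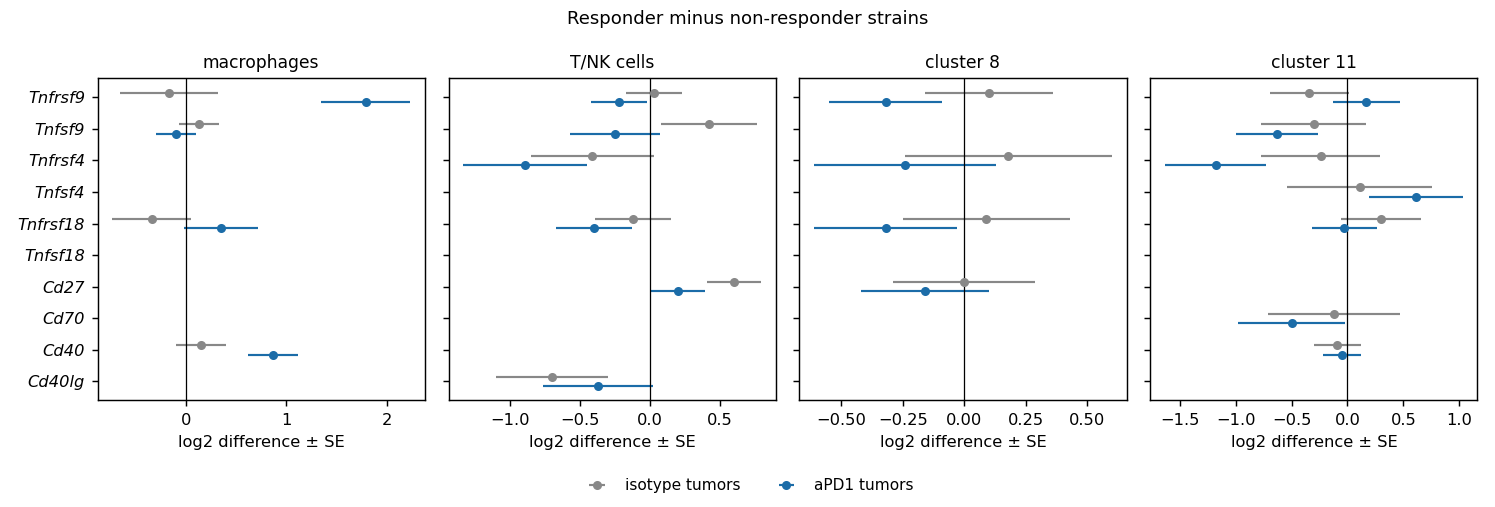
Log2 difference between responder and non-responder strains of each tested gene within isotype tumors (grey) and within aPD1 tumors (blue), in macrophages, T/NK cells and clusters 8 and 11, with bars of 1 standard error; the scale differs between panels. Within aPD1 tumors Tnfrsf9 in macrophages stands at 1.79 and Cd40 at 0.87, the latter called, and Tnfrsf4 at -0.89 in T/NK cells and -1.18 in cluster 11, neither called.

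Other genes of the same pathways were read from lists of the rest of the TNF receptor family, the rest of the ligands, the TRAF adaptors, NF-kappaB subunits and targets, and the CD28 family with its B7 ligands. In macrophages, between the classes, 0 of 14 receptors tested were called (median difference 0.07), 1 of 8 ligands was higher and 1 lower (median 0.26), 1 of 14 TRAF adaptors and proximal signalling genes was higher (median 0.06), 0 of 15 NF-kappaB genes were called (median 0.12) and 0 of 6 genes of the CD28 family (median 0.21). The median over all genes was -0.00, and of all genes tested 4.1% were called higher and 2.46% lower, so that the share of list genes called is near that of all genes. Tnfsf13b, which encodes the B cell survival factor BAFF, was higher in responders by 0.98 ± 0.21 (edgeR, adjusted p = 0.00237). Ltb, lymphotoxin beta, was lower by 1.73 on the log2 scale (-1.73 ± 0.34, edgeR, adjusted p = 9.82e-04). Traf5, an adaptor used by CD27, OX40 and GITR among others, was higher by 0.67 ± 0.18 (edgeR, adjusted p = 0.0202).

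Traf5 was also higher in T/NK cells of responders, by 1.06 ± 0.20 (edgeR, adjusted p = 0.00104), and in cDC1, by 1.31 ± 0.27 (edgeR, adjusted p = 0.0114), so it was called in 3 of the 5 populations fitted. Also in T/NK cells, Birc2, which encodes the ubiquitin ligase cIAP1 bound to TRAF2, was lower by 0.49 on the log2 scale (-0.49 ± 0.10, edgeR, adjusted p = 0.00373). Over all genes in T/NK cells 0.928% were called higher and 1.3% lower. Of 15 NF-kappaB genes 2 were higher, the survival genes Bcl2a1d by 0.87 ± 0.16 (edgeR, adjusted p = 9.91e-04) and Bcl2a1b by 0.58 ± 0.15 (edgeR, adjusted p = 0.0334), which are near-identical copies whose reads may be split between them. Pdcd1, which encodes PD-1, was higher by 0.91 ± 0.19 (edgeR, adjusted p = 0.00335), 1 of 8 genes of the CD28 family. None of 4 receptors and none of 7 ligands of the rest of the TNF family was called there. CD8-marked cluster 3 was a larger share of T/NK cells in responders, as given above, and its part in these calls was not tested. Response class is a property of the strain, and tumors of 1 strain are not independent replicates of a class. With counts summed per strain, read for these genes after the data had been seen, none of the 8 differences called here in macrophages and T/NK cells was called (edgeR, adjusted p of 0.53 to 0.992), and all kept their sign. Of all genes, that fit called 3 in macrophages and 3 in T/NK cells, so it could call few genes at all.

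Within aPD1 tumors alone, macrophages of responders had 1 of 14 receptors lower (Tnfrsf22, a decoy receptor for TRAIL, -0.86, adjusted p = 0.0425), 1 of 8 ligands higher (Tnfsf13b, 1.35, adjusted p = 0.00372), 1 of 14 TRAF and proximal genes higher (Traf5, 0.82, adjusted p = 0.0438), 0 of 15 NF-kappaB genes called and 1 of 6 genes of the CD28 family higher, all by edgeR. Of all genes tested in this contrast, 4.35% were called higher and 2.1% lower, near the share on the lists. The last was Cd274, which encodes PD-L1, the ligand of PD-1, at 1.38 ± 0.37 (edgeR, adjusted p = 0.0238). Tnfrsf22 and Cd274 are named after their values were seen. None of the genes on these lists was called in T/NK cells within aPD1 tumors. Within isotype tumors 1 of 8 ligands was lower in macrophages (Ltb, -2.47, adjusted p = 0.00869) and 1 of 15 TRAF and proximal genes higher in T/NK cells (Traf5, 1.15, adjusted p = 0.0472), both by edgeR, and no other list gene was called in the 5 populations. Of all genes tested within isotype tumors, 0.278% were called in macrophages and 0.429% in T/NK cells. In cDC1, over both treatments, the only list genes called were Traf5 and Bcl2a1b (0.85, adjusted p = 0.0481 by edgeR), with 0.452% of all genes called. In cluster 8 and migratory DCs no list gene was called.

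The genes with the pattern most like Tnfrsf9 were ranked by Pearson's r of log2(CPM + 1), as a description without a test, since clusters share libraries and depth. Over all 27 clusters and 10315 genes the leading 5 were Camk4 (r = 0.912), Il2ra (0.906), Rhof (0.905), Utf1 (0.900) and Tnfrsf18 (0.899), of which Il2ra encodes the IL-2 receptor alpha chain of activated and regulatory T cells and Camk4 a calcium-dependent kinase of T cells. Over the 10 macrophage clusters and 8408 genes they were Fcrlb (0.881), Tnfrsf23 (0.811), Cd9 (0.807), Aldoc (0.804) and Hk1 (0.797). Aldoc and Hk1 encode glycolytic enzymes and Tnfrsf23 another decoy receptor for TRAIL. The 2 lists held no gene in common.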

How the data were processed

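Single-cell RNA was read by 10x Genomics 5′ chemistry from hashed pools of CD45-enriched tumor cells. The authors aligned reads to GRCm38 (mm10) with the GENCODE-based 10x annotation in Cell Ranger, assigned cells to tumors by hashtag, filtered cells and clustered them in Seurat 5.0.1 with harmony, and deposited raw UMI counts per gene and cell with a cluster for each cell. Reads from CC haplotypes were aligned to the reference genome, and the effect of this was not tested. No doublet caller was run here beyond the hashing. The members and lists were chosen with earlier results of these data known.

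Counts were summed per tumor and population with Python 3.11.15, numpy 2.4.6 and pandas 2.3.3, and drawn with matplotlib 3.10.9. Clusters were named by at least 3 markers at 100 CPM or more and 50% of a marker list, a rule set after the data had been seen. Tumors with at least 20 cells of a population entered edgeR 4.0.16 (R 4.3.3) with TMM, filterByExpr and the quasi-likelihood test over 4 group means. Adjusted p-values are Benjamini-Hochberg over all genes tested, and the threshold was 0.05. DESeq2 1.42.0 was an alternative. Clusters 1, 3, 10 and 13 lacked tumors for the fit at that minimum. The fit was tested on simulated counts first. The replicate is the tumor, a separate mouse except for the animal identifier on 2 tumors. Response classes are those of the study rather than of the labels. The rule for named genes took the 10 members, up to 3 called genes a list with the largest class difference in macrophages and in T/NK cells, and the 5 genes most like Tnfrsf9 over clusters of at least 100 cells.

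Each pool held isotype and aPD1 tumors in 1 library, so pools pair tumors. Deviations from group means of tumors of 1 pool and strain had a median r of 0.52 in macrophages (18 of 19 pairs over 0.1) and 0.23 in T/NK cells (16 of 19). Tumors of 1 pool and different strains had 0.24 (26 of 36) and 0.10 (18 of 36), and tumors of 1 strain in different pools had 0.31 (61 of 84) and 0.11 (43 of 84), so that tumors of a strain are not independent either. The labels give no batch. Pools 1 to 6 against 7 to 12 were set as a term by pool number, and pools 1 to 5 and 8 to 12 were fitted alone, and none of these is known to be a shared preparation or run. The depth of a tumor in the 4 groups compared lay between 808362 and 17713491 UMIs, so that for genes at 1 CPM the precision is that of a few UMIs.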

Additional observations from a re-analysis of the deposited data

Results flagged for a closer look

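In 40 groups of 4 to 10 tumors, the highest or lowest tumor was checked against its nearest neighbour by Dixon's gap, which chance passes in about 1 of 20 groups. In all, 7 values passed. In macrophages of non-responder aPD1 tumors, the CC036 tumor of pool 10 had Tnfrsf9 at 18.5 CPM (131 UMIs in 1488 cells), with the next tumor at 9.25 CPM. The same tumor had Tnfsf9 at 70.8 CPM (501 UMIs), with the next at 40.1 CPM, so it was the highest of its group for both the receptor and its ligand. In macrophages of responder aPD1 tumors, the CC075 tumor of pool 9 had Tnfrsf9 at 91.3 CPM (342 UMIs in 955 cells), with the next at 26.5 CPM. Its macrophages also had the highest summed T/NK markers of the group, 60.6 CPM. With cells that held a T cell marker left out, its Tnfrsf9 was 87.2 CPM. The CC036 tumor of pool 10 had T/NK markers at 8.76 CPM, not the highest of its group.

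The other 4 values were from T/NK cells. Among non-responder aPD1 tumors, the CC079 tumor of pool 1, with 29 T/NK cells, had Tnfrsf4 at 1671.1 CPM (135 UMIs, next 873 CPM) and Cd27 at 198 CPM (16 UMIs, next 121 CPM). The CC079 isotype tumor of pool 2 had Tnfrsf18 at 709 CPM (308 UMIs in 190 cells, next 428 CPM). Among responder aPD1 tumors, the CC001 tumor of pool 1 had the lowest Cd40lg, 5.34 CPM (4 UMIs in 203 cells, next 31.7 CPM).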

How the results depend on the processing

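Over the alternatives, 770 recomputed counts of calls and main values stayed the same and 20 moved. Cd40 in macrophages within aPD1 tumors was the only member called in the main fits, so most of these counts were 0 that stayed 0. Many alternatives held fewer tumors and could call less, so the total does not show that a result is stable. For single genes outside Tnfrsf9, a value counted as the same if its sign and its call stayed, whatever its size. For Tnfrsf9 it had to keep its sign and stay within 1 standard error of the main value. By this rule 539 values were the same, 10 moved, 11 reversed, 12 lost the call and 6 gained it. The class difference of Tnfrsf4 in T/NK cells, -0.65 and then -0.01 without CC079, thus counted as the same. Over both treatments, Cd40 between the classes in macrophages, not called in the main fit (0 other members called), was called (1) with the pools as replicate block (0.54, adjusted p = 0.0436), without CC001 (0.65, 0.0339) and without CC080 (0.67, 0.0393), and its difference was 0.25 without CC079. Leaving out 1 tumor at a time gave 0 to 1 (1 without the CC080 isotype tumor of pool 4, 0.59, 0.028). Within aPD1 tumors the 1 call of Cd40 went to 0 within pools 1 to 5, within pools 8 to 12, without CC075 (0.76, 0.11), without CC079 (0.67, 0.115), without CC080 (0.88, 0.0749) and without the tumors of the shared animal identifier (0.86, 0.0527), and to 0 or 1 without single tumors (0 for CC001 aPD1 pool 2, CC079 aPD1 pools 2 and 5, CC080 aPD1 pool 4 and CC075 aPD1 pools 9 and 10). In T/NK cells 0 members went to 1 (Cd27) with a term for pools 1 to 6 against 7 to 12 and without CC079, and without a filter on low counts 0 went to 1 (Tnfrsf4) within aPD1 tumors of clusters 6 and 11, where in cluster 6 all 13 non-responder UMIs lay in 1 of 5 tumors. The replicate block changed no other call of a member.

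Signs reversed for Cd40 within isotype tumors (-0.06 in pools 1 to 5, -0.16 without CC075, -0.17 without CC079, -0.00 without the CC075 isotype tumor of pool 9, with -0.00 to 0.32 over single tumors left out). In T/NK cells they reversed for Tnfrsf18 (0.09 in pools 8 to 12, 0.08 without CC079), Cd40lg (0.08 without CC036) and Tnfrsf9 (0.05 in pools 8 to 12, 0.08 without CC075, 0.07 without CC079, 0.04 summed per strain). The cause was not tested. The count of all genes called between the classes in macrophages, 779, was 331 in pools 1 to 5, 332 in pools 8 to 12 and 3 summed per strain. Within aPD1 tumors 765 was 1398 with the block, 1165 with the term for pools 1 to 6 against 7 to 12, 148 in pools 1 to 5, 70 in pools 8 to 12, and 324, 382 and 495 without CC075, CC079 and CC080. In T/NK cells 161 was 301 with the block, 296 with that term, 278 without a filter, 42 in pools 8 to 12, 3 summed per strain, and 316, 283, 316 and 100 without CC036, CC075, CC080 and CC002. Depth limits Tnfsf18, Cd70 and Tnfsf4, at 82, 671 and 723 UMIs in all cells.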

Other observations

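B6 and CC007 tumors, in neither response class, paired within pools as follows. Macrophage Tnfrsf9 was higher with aPD1 in 4 of 5 pairs, with a median difference of 7.22 CPM, where the aPD1 tumor of 1 pair held 1 Tnfrsf9 UMI in 30 macrophages. In cluster 2 it was higher in 1 of 4 pairs, with a median difference of -15.9 CPM. Macrophage Cd40 was higher with aPD1 in 3 of 5 pairs.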
